A study of Mus musculus with 4 samples.

Results

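Cytosolic ribosomal protein genes encode the protein parts of the ribosome that translates nuclear-encoded mRNAs. They were chosen here by symbol alone, as Rpl or Rps followed by a digit together with Rpsa, Rplp0, Rplp1 and Rplp2, leaving out pseudogene symbols, the Rps6k kinases, Rpl39l, Rpl22l1 and Rpl3l. The choice gave 83 genes (49 Rpl and 34 Rps) of 32289 gene rows. These members held 28781397 of the 269700714 UMIs (unique molecular identifiers, 1 per captured RNA molecule) in the cells kept, or 10.7%. The 5 pseudogene rows that were left out held 0.0118%.

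The cells came from mesenteric lymph nodes of 12 mice aged 15 days that carried Gm38411-iCre-hCD2 and R26-tdTomato, so that all groups share both alleles and none was treated. The Gm38411 allele carries an iCre recombinase and the human CD2 surface marker, and R26-tdTomato gives a red label to cells in which the recombinase has acted, and to their descendants. Cells negative for CD3 and B220 and positive for CD11c, MHC-II and tdTomato were sorted into an hCD2+ and an hCD2- fraction, and each fraction was sequenced as 1 droplet library. Each mouse had its own hashtag antibody, a barcoded antibody read beside the RNA, so the mouse was the replicate, but the fraction and the library cannot be told apart.

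Ribosomes consist of a small subunit, built with the Rps proteins, which reads the mRNA, and a large subunit, built with the Rpl proteins, which joins the amino acids. Rplp0, Rplp1 and Rplp2 form the stalk of the large subunit, which recruits the elongation factors, and Rpsa is a small subunit protein also known as the laminin receptor precursor. Many of these mRNAs start with a C followed by a run of pyrimidines (a terminal oligopyrimidine tract), through which mTOR signalling is known to control their translation as a group. Cells that grow or divide are known to make more ribosomes than resting cells.

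The rule also took in 6 genes that are not standard subunits. Rps27l, Rps27rt, Rpl7l1, Rpl36al and Rpl10l are paralogs of Rps27, Rpl7, Rpl36a and Rpl10, and Rps19bp1 encodes a protein that binds Rps19 and is no ribosomal protein. Rpl10l had 0 UMIs, so 82 members could be tested. Sequences around the transcription start are printed for Rps27 and its paralogs, and for Rpl35 and Rpl38. Rps27, Rpl35 and Rpl38 are among the short members that were lower in the hCD2+ library. The 28-base windows below run from 8 bases before to 20 bases from the start (RefSeq, GRCm38.p6), so each holds the edge of the promoter and the first transcribed bases of exon 1. Capitals mark a C followed by at least 5 pyrimidines (C or T), searched on the sense strand.
Rps27, chr3:90213629-90213656, minus strand: ctttcgCTCCTTTCCggcggtgacgacc
Rps27rt, chr9:114982720-114982747, minus strand: atcccttgCTTTCCggcggtgacgacct
Rps27l, chr9:66946078-66946105, plus strand: tccccgccgcctctatcccggaagttgc
Rpl35, chr2:39005112-39005139, minus strand: gCCCTTTCCTCTTTCTCTCgaaccaggc
Rpl38, chr11:114668572-114668599, plus strand: gcctcgttCTTTCCCCgttCTCTTCggt
The first 40 bases of Rps27 and Rps27rt share a run of 38 bases, and the mRNAs (345 and 374 bases) share an identical run of 341 bases. Rps27 and Rps27l mRNAs share no run longer than 11 bases. Rpl36a and Rpl36al share 24, Rpl10 and Rpl10l 23, and Rpl7 and Rpl7l1 10. UMIs of Rps27 and Rps27rt may therefore be split between the 2 genes by the counting, and their values are uncertain. Of the 63 members with a RefSeq entry, 33 (52.4%) held such a run in the window, against 23.2% of 26962 other genes. Among the short members lower in hCD2+, Rps27, Rpl35, Rpl38, Rpl39 and Rps21 held the run in a window. Rps28, Rpl37 and Rpl37a did not, and Rps29 and Rpl36 had no entry. Whether the run goes with the library difference was not tested.

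After filtering, 7099 hCD2+ cells (median 17486 UMIs) and 4762 hCD2- cells (median 23846 UMIs) were kept, and 9 cell barcodes occurred in both libraries. Clustering without the member genes gave 26 clusters, numbered from 0, and marker genes named most of them. The largest class of the hCD2+ library was ILC3 or LTi-like (3025 cells, against 243 in the hCD2- library), and the hCD2- library held more T cell-like cells (1030 against 380), although the sort gated on cells without CD3. The summed level of 12 T cell markers was 6050 to 8365 CPM (UMIs of a gene scaled to a common library total) in the hCD2- T cell-like class and 542 to 873 CPM in the NK or ILC1-like class. Prdm16 or Aire DC-like cells were nearly all hCD2+ (976 cells against 15). Classes were rebuilt from the counts, and their makeup differed between the libraries. Of the CCR7 migratory DC-like cells, 84.1% were in cluster 11 in the hCD2- library and 43.5% in the hCD2+ library.

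Levels differed widely between members. Rps24 was highest, at 2732 CPM or 2.56% of all member UMIs, and others among the highest were Rplp1 (2406 CPM), Rpl13 (2291 CPM) and Rpsa (2042 CPM). The lowest were Rpl10l (0 CPM), Rps19bp1 (15.9 CPM), Rps27rt (53.8 CPM), Rpl7l1 (67.6 CPM) and Rps27l (156 CPM), all of them paralogs or the Rps19 binding protein. The 10 highest members together held 20.4% of member UMIs, so no single gene carried the total. A UMI marks 1 captured molecule, so these levels are per molecule and not scaled by gene length.

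How much of a cell's mRNA is devoted to ribosomal proteins differed mainly by cell class. In the hCD2- library the share of UMIs in members, averaged over mice with at least 20 cells of a class, was 17.6% ± 0.821 (SD, n = 12) in T cell-like, 14.05% ± 0.669 (n = 6) in cDC1-like, 13.99% ± 0.715 (n = 12) in NK or ILC1-like, 11.7% ± 0.445 (n = 12) in cDC2-like, 8.67% ± 0.513 (n = 6) in ILC3 or LTi-like and 7.76% ± 0.540 (n = 12) in CCR7 migratory DC-like cells. T cell-like cells thus had the highest share and CCR7 migratory DC-like cells the lowest, and the T cell-like values did not overlap with those of any other class (16.5 to 19.2% over mice). All neighbours in this order differed by two-sided permutation tests (exact where an arm had under 10 mice; adjusted p over the pairs of the library between 2.5e-05 and 0.00473), other than cDC1-like and NK or ILC1-like cells, whose difference was 0.0612 percentage points ± 0.342 (SE; exact permutation adjusted p = 0.865).

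The hCD2+ library gave the same order for the classes it held in enough mice. The share was 17.7% ± 0.414 (n = 9) in T cell-like, 11.2% ± 0.586 (n = 5) in cDC2-like, 8.75% ± 0.191 (n = 12) in ILC3 or LTi-like, 8.69% ± 0.337 (n = 12) in Prdm16 or Aire DC-like and 7.11% ± 0.499 (n = 12) in CCR7 migratory DC-like cells. ILC3 or LTi-like and Prdm16 or Aire DC-like cells overlapped and did not differ by the test (difference 0.0625 percentage points ± 0.112 SE, permutation adjusted p = 0.580), and the other neighbours in the order did (exact permutation adjusted p of 2.02e-04 and 5.55e-04 for the pairs with cDC2-like cells, permutation adjusted p of 2e-05 for the last pair). Paired by mouse, the pairs with cDC2-like cells rest on 5 mice, which cannot pass the threshold (exact permutation adjusted p = 0.0694). As the mean of per-cell shares, ILC3 or LTi-like cells were 0.882 percentage points above Prdm16 or Aire DC-like cells, past the threshold, so this neighbour test depends on how cells are weighted.

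**Figure D1:**
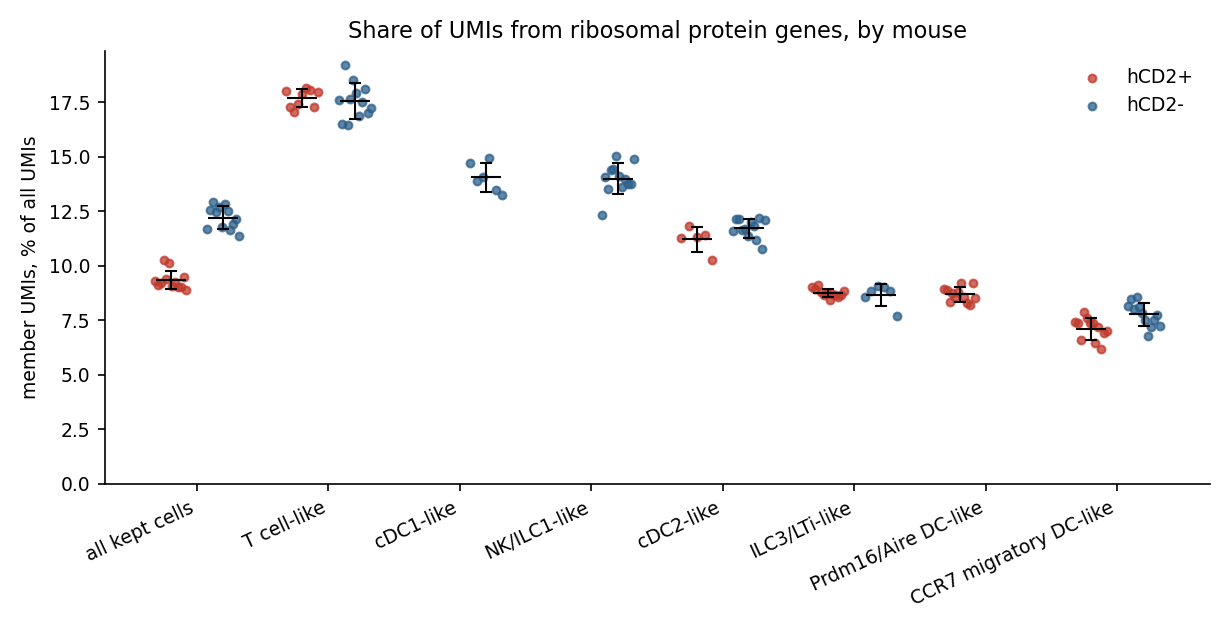
Share of all UMIs that came from ribosomal protein genes (y axis, percent) in each mouse (points), by cell class (x axis) and library (red hCD2+, blue hCD2-). Bars give the mean and SD over mice, and classes with fewer than 4 mice in a library are left out. T cell-like cells sit highest, at 17.7 and 17.6%, and CCR7 migratory DC-like cells lowest, at 7.11 and 7.76%.

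Summed over all kept cells, the share was 9.34% ± 0.431 (n = 12) in the hCD2+ and 12.2% ± 0.523 (n = 12) in the hCD2- library, lower in hCD2+ in 12 of 12 mice (permutation p = 1e-05, the smallest the permutations can give). The mix of cells differed too, and with 8 clusters that both libraries hold weighted to 1 common mix, the shares were 10.8% and 10.7%. Within classes, the difference was 0.0865 percentage points ± 0.217 (SE) in ILC3 or LTi-like cells (exact permutation adjusted p = 0.686), 0.124 ± 0.274 in T cell-like cells (exact permutation adjusted p = 0.686) and -0.509 ± 0.292 in cDC2-like cells (exact permutation adjusted p = 0.108). The cDC2-like value depended on the setting. It was -0.844 in mice with at least 10 cells, and -0.667 without mouse 5 of hCD2+, -0.558 without mouse 9 of hCD2- and -0.596 without mouse 11 of hCD2-, all past the threshold, but 0.0109 with per-cell shares and 0.0751 after removal of free RNA. Cluster 7 made up 39.8% of this class in hCD2+ and 13.7% in hCD2-, and within cluster 16 the share was 12.5% ± 0.458 (n = 7) in hCD2+ against 12.0% ± 0.544 (n = 12; higher in 6 of 7 mice; exact permutation adjusted p = 0.118). After removal of free RNA the ILC3 or LTi-like share was higher in hCD2+ by 0.737. This removal assumed that 10% of UMIs were free RNA, in which members made up 7.67% in hCD2+ and 13.4% in hCD2-. It thus raises the difference by construction, and calls made after it depend on the assumed 10%. In CCR7 migratory DC-like cells the share was lower in the hCD2+ library, 7.11 against 7.76%, in 11 of 12 mice (difference -0.656 ± 0.212 SE, permutation adjusted p = 0.0139). Within cluster 11 alone it was 8.24% ± 0.770 (n = 12) against 8.24% ± 0.521 (n = 12; unadjusted permutation p = 0.989) and within cluster 10 it was 6.63% ± 0.666 (n = 10) against 5.70% ± 1.29 (n = 5; higher in hCD2+ in 5 of 5 mice; exact permutation adjusted p = 0.227). Cluster 12 made up 29.8% of this class in hCD2+ and 0.944% in hCD2-. Its hCD2+ share was 6.11% ± 0.738 (n = 8), below cluster 11 of that library (exact permutation adjusted p = 2.41e-04). The part of cluster 12 in the class difference was not tested. The class difference did not pass the test with per-cell shares (permutation adjusted p = 0.0789) or after the assumed removal of free RNA (permutation adjusted p = 0.798). The summed level of 10 Prdm16 or Aire DC markers in this class was 627 to 1578 CPM in the hCD2+ and 33.5 to 314 CPM in the hCD2- library, with 6 of 7 tested markers higher, and its part in the result was not tested. Red cell genes reached 7406 CPM in 1 hCD2+ mouse of this class and at most 7.52 CPM in hCD2-, and their part was not tested either.

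Classes also varied inside. In the Prdm16 or Aire DC-like class of the hCD2+ library, cluster 4 had a share of 9.52% ± 0.340 and cluster 6 of 6.66% ± 0.718 (n = 12 each; higher in cluster 4 in 12 of 12 mice; permutation adjusted p = 6.5e-05 over 13 pairs of clusters). Cluster 6 also held more of the CCR7 migratory DC markers, 7108 to 9190 CPM summed against 1056 to 1418 CPM in cluster 4, with 10 of 10 tested markers higher, and as many raised markers of that list (7) as of the Prdm16 or Aire DC list (7). The part of these markers in the difference was not tested. Among T cell-like cells, cluster 21 was above cluster 20 in both libraries, 18.6% ± 0.866 (n = 12) against 15.3% ± 0.931 (n = 12) in hCD2- (permutation adjusted p = 6.5e-05) and 18.5% ± 0.671 (n = 9) against 15.2% ± 0.753 (n = 4) in hCD2+ (exact permutation adjusted p = 0.00303; paired by mouse, exact permutation p = 0.125 over 4 mice, which cannot pass the threshold). Among CCR7 migratory DC-like cells, cluster 11 was above cluster 10 in both libraries, 8.24 against 6.63% in hCD2+ (permutation adjusted p = 3.57e-04) and 8.24 against 5.70% in hCD2- (exact permutation adjusted p = 4.20e-04; paired by mouse, exact permutation p = 0.0625 over 5 mice, the smallest they allow). Some cells had very few member UMIs. Cells with a share under 4%, a limit set after the values were seen, made up 20.7% of hCD2+ and 20.1% of hCD2- CCR7 migratory DC-like cells, 13.7% of Prdm16 or Aire DC-like cells and 0.661% of hCD2+ ILC3 or LTi-like cells. These cells were shallower (a median of 19442 against 35076 UMIs in hCD2+ CCR7 migratory DC-like cells), with more of the nuclear RNA Malat1 (76245 against 39153 CPM) and less Actb (9231 against 16589 CPM). Cluster 5, left unnamed, was the extreme, with 939 hCD2+ and 79 hCD2- cells, a share of 0.413% ± 0.0641 (n = 12) in hCD2+, a median of 2403 UMIs and Malat1 at 40357 CPM.

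The balance between the subunits moved little. The ratio of small to large subunit UMIs was 0.765 ± 0.00395 (n = 12) in Prdm16 or Aire DC-like, 0.778 ± 0.00278 (n = 12) in hCD2+ ILC3 or LTi-like, 0.783 ± 0.00558 (n = 12) in NK or ILC1-like, 0.796 ± 0.00249 (n = 6) in cDC1-like and 0.829 ± 0.0114 (n = 12) in hCD2- CCR7 migratory DC-like cells, and was highest, 0.835 ± 0.00582 (n = 5), in hCD2+ cDC2-like cells. The 2 marker genes followed the share only in part. Rplp0 was at 3160 CPM ± 160 in hCD2- T cell-like cells, 2361 ± 91.8 (n = 6) in cDC1-like, 2187 ± 144 in NK or ILC1-like, 1931 ± 82.6 in cDC2-like, 1412 ± 146 in CCR7 migratory DC-like (n = 12 each) and 1031 ± 106 (n = 6) in ILC3 or LTi-like cells of the hCD2- library. Rpsa was at 3504 CPM ± 217 in T cell-like and 2000 ± 281 in CCR7 migratory DC-like cells of that library, and at 1263 ± 106 (n = 6) in ILC3 or LTi-like cells. Both markers were thus lowest in ILC3 or LTi-like cells there, although CCR7 migratory DC-like cells had the lower total share.

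A set of 10 members set the libraries apart in every class tested. Counts were summed per mouse and tested with edgeR's quasi-likelihood test, Benjamini-Hochberg adjusted over all genes, with an adjusted p under 0.05 as a call. Comparing hCD2+ with hCD2-, 6 members were higher and 14 lower in ILC3 or LTi-like cells (1.98% and 2.99% of all genes, 4.97% in either direction), 2 higher and 31 lower in CCR7 migratory DC-like cells (16.9% and 15.9% of all genes, 32.8% in either direction), and 32 higher and 12 lower in T cell-like cells (22.1% and 18.2% of all genes, 40.4% in either direction). Rpl39, Rps29, Rps28, Rpl38, Rps21, Rps27, Rpl37a, Rpl37, Rpl36 and Rpl35 were lower in all 3 classes, Rps27rt was higher in all 3, and 19 members were called in none. In ILC3 or LTi-like cells the split moved to 17 higher and 12 lower with library sizes alone, 12 and 10 with no filter on low counts and 16 and 19 with DESeq2. For the 10 members, no hCD2+ mouse overlapped with an hCD2- mouse in any of the 3 classes. They were picked by their calls in these same comparisons, so this separation is no separate support. The share of all genes without overlap was not counted.

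Rpl35, a large subunit protein near the exit of the peptide tunnel, was at 235 (lowest), 254 (median) and 270 CPM (highest of 12 mice) in hCD2+ ILC3 or LTi-like cells and at 449, 558 and 638 CPM in hCD2-. The 2 ranges were far apart, with a log2 fold change of -1.16 ± 0.0503 (SE; edgeR adjusted p = 6.46e-17). In CCR7 migratory DC-like cells Rpl35 was at 219, 244 and 297 CPM against 491, 521 and 582 CPM (log2 -1.12), and in T cell-like cells at 495, 532 and 609 CPM (11 mice) against 1010, 1106 and 1192 CPM (log2 -1.03).

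Rps29, a small subunit protein with a zinc finger, was at 480, 502 and 532 CPM in hCD2+ ILC3 or LTi-like cells against 911, 1009 and 1163 CPM in hCD2- (lowest, median and highest of 12 mice). It was lower in 12 of 12 mice there and in CCR7 migratory DC-like cells and in 11 of 11 in T cell-like cells, with log2 fold changes of -1.07, -1.17 and -1.17. Rpl38, whose loss in mice alters the axial skeleton, followed at -0.996, -1.14 and -0.98, Rps28 at -0.94, -1.06 and -0.99, and Rps27 at -0.90, -1.06 and -1.13. Smaller but equally separated differences were found for Rpl39 (-0.62, -0.79 and -0.72), a protein of the peptide tunnel, Rps21 (-0.54, -0.62 and -0.60), Rpl37 (-0.58, -0.58 and -0.55), Rpl36 (-0.48, -0.62 and -0.49) and Rpl37a (-0.48, -0.52 and -0.53).

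**Figure D2:**
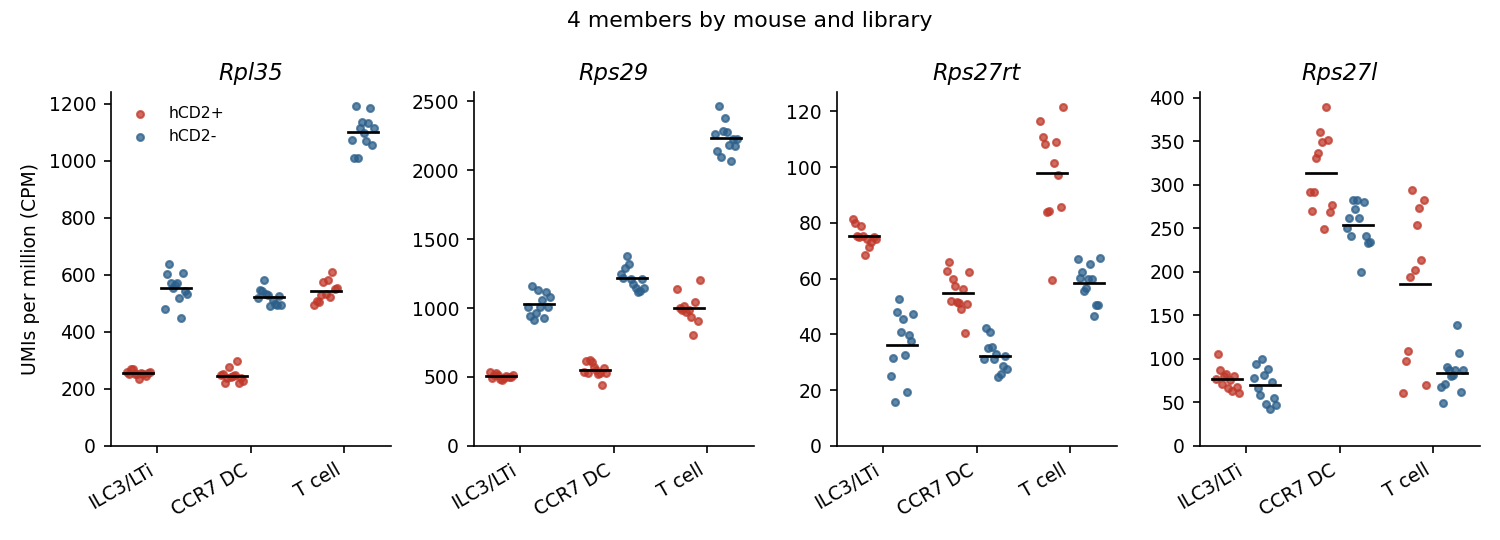
Level (y axis, CPM) of 4 members in each mouse (points), by class (x axis) and library (red hCD2+, blue hCD2-), with lines at the mean. Rpl35 and Rps29 lie lower in hCD2+ with no overlap in the 3 classes, Rps27rt lies higher in hCD2+, and Rps27l differs by class.

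The 10 members were all short. Their coding lengths ran from 153 to 369 bases (median 250.5), against a median of 472.5 bases for the other members. Of the 28 members with a coding length under 400 bases, 10 were lower in all 3 classes, and of the 54 longer ones 0 were. The limit of 400 bases lies above the longest of the 10, so the 0 follows from it by construction. Length alone did not mark them. Rpl41, the shortest member (75 bases), had log2 fold changes of -0.20, -0.19 and 0.12, and Rplp1 (342 bases) of 0.08, 0.02 and 0.12. The 10 made up 7.12% of member UMIs in the hCD2+ and 11.1% in the hCD2- library.

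**Figure D3:**
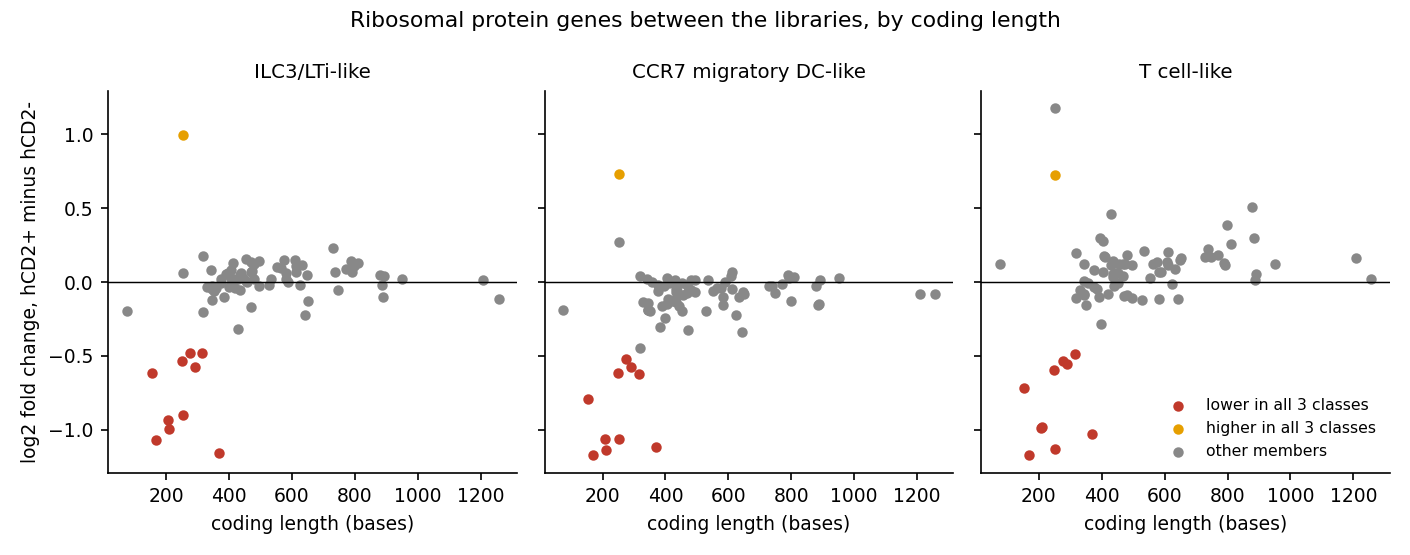
Log2 fold change of each member, hCD2+ minus hCD2- (y axis, edgeR), against its coding length in bases (x axis), in 3 cell classes. The 10 members called lower in all 3 classes (red) have coding lengths of 153 to 369 bases, Rps27rt (orange) is the 1 member higher in all 3, and the 54 members of 400 bases or more include none that is lower in all 3. That limit lies above the longest of the 10, so the last statement follows from it by construction.

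The 10 were picked by their calls in these 3 classes, and they were also lower in hCD2+ in clusters of other classes. In the cDC1-like cluster 14 all 10 were lower, with no overlap between mice (log2 of the ratio of mean CPM -1.16 to -0.50, median -0.81), as in the unnamed cluster 8 (10 of 10 without overlap, median -0.80). In the cDC2-like cluster 16 all 10 were lower, 8 without overlap (median -0.56). Inside the 3 classes, all 10 were lower in each cluster compared, but in the CCR7 migratory DC-like cluster 10 only 4 were without overlap (median -0.48). In clusters 0 and 21 it was 10, and in clusters 11 and 20 it was 9. The share of all genes without overlap in these clusters was not counted. In droplets with 10 to 100 UMIs, which hold free RNA and no called cell, the 10 differed between the libraries by a median log2 of -0.60, and the other members by 0.0448.

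Short genes outside the members moved in both directions. Of 455 other genes with a coding length under 400 bases tested in ILC3 or LTi-like cells, 4.18% were lower and 5.49% higher, with a median log2 fold change of 0.09. In CCR7 migratory DC-like cells 13.9% were lower and 27.5% higher (median 0.10), and in T cell-like cells 6.97% were lower and 54.0% higher (median 0.34). Over all genes the shares lower and higher were 2.99% and 1.98%, 15.9% and 16.9%, and 18.2% and 22.1% in the same order of classes. Single short genes, chosen after their values were seen, were lower in all or some of the classes. In ILC3 or LTi-like, CCR7 migratory DC-like and T cell-like cells, Atp5k (213 bases) had log2 fold changes of -0.90, -0.71 and -0.18. Ndufa3 (252 bases) had -0.87, -0.65 and -0.21 in the same order. Neither was called in T cell-like cells (edgeR adjusted p = 0.351 and 0.118). The mitochondrial gene mt-Nd4l, a subunit of respiratory complex I (294 bases), had log2 fold changes of -1.42, -1.23 and -1.46 in ILC3 or LTi-like, CCR7 migratory DC-like and T cell-like cells, and mt-Atp8, a subunit of the ATP synthase (201 bases), of -1.003, -0.83 and -0.94 (edgeR adjusted p from 1.87e-18 to 2.4e-07).

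Counting only members with a coding length of at least 400 bases, in an alternative added after the data were seen, the share was 6.25% in hCD2+ against 5.81% in hCD2- in ILC3 or LTi-like cells, 12.8 against 11.9% in T cell-like, 4.97 against 5.11% in CCR7 migratory DC-like and 8.14 against 8.09% in cDC2-like cells. The limit lies above the longest of the 10 members, so it takes out those lower in hCD2+ by construction, and these shares are given as values without a test.

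The paralogs of Rps27 behaved each in its own way. Rps27rt was higher in hCD2+ by log2 0.99 ± 0.109 (SE) in ILC3 or LTi-like cells (75.2 CPM ± 3.55 against 36.2 ± 11.8, n = 12 each), by 0.73 in CCR7 migratory DC-like and by 0.72 in T cell-like cells. Its share of the summed Rps27 and Rps27rt UMIs was 2.38 to 2.56% in every hCD2- class and 8.21 to 8.74% in every hCD2+ class. That share followed the library and not the cell class, and how the reads of these near-identical mRNAs were assigned was not tested.

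Rps27l, an Rps27 paralog known to be induced by p53, followed the cell class as well. Its share of the summed Rps27 and Rps27l UMIs in the hCD2- library was 17.2% ± 1.57 (n = 12) in CCR7 migratory DC-like, 14.9% ± 1.18 (n = 6) in cDC1-like, 8.26% ± 1.21 (n = 12) in cDC2-like, 6.35% ± 1.96 (n = 12) in NK or ILC1-like, 4.73% ± 1.43 (n = 6) in ILC3 or LTi-like and 3.597% ± 1.02 (n = 12) in T cell-like cells. In the hCD2+ library it was 34.3% ± 4.23 (n = 12) in CCR7 migratory DC-like, 20.9% ± 3.04 (n = 5) in cDC2-like, 16.4% ± 1.23 (n = 12) in Prdm16 or Aire DC-like, 14.6% ± 8.52 (n = 9) in T cell-like and 8.45% ± 1.14 (n = 12) in ILC3 or LTi-like cells. A lower Rps27 count raises this share by construction. Among the other paralogs, Rpl36al held 42.8% ± 1.36 (n = 6) of the summed Rpl36a and Rpl36al UMIs in cDC1-like cells, above the 26.5 to 34.4% of the other hCD2- classes.

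**Figure D4:**
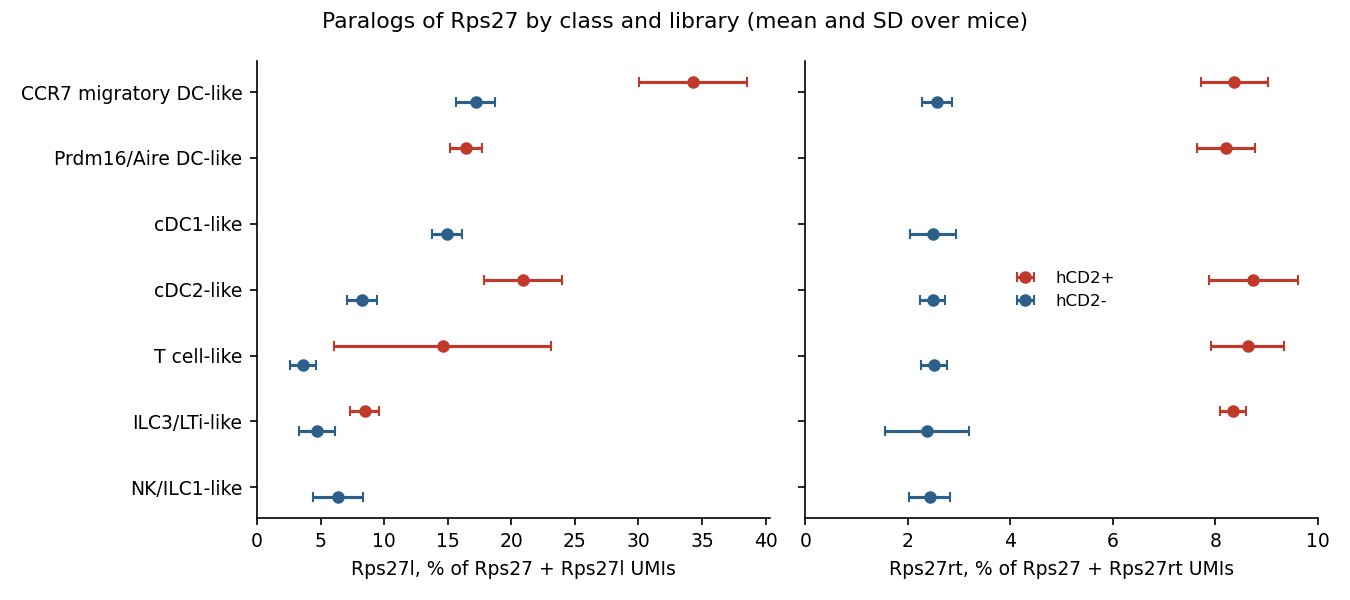
Share of Rps27l in the summed Rps27 and Rps27l UMIs (left x axis, percent) and of Rps27rt in the summed Rps27 and Rps27rt UMIs (right x axis, percent) by cell class (y axis) and library (red hCD2+, blue hCD2-), as mean and SD over mice. The Rps27rt share lies at 2.38 to 2.56% in each hCD2- class and at 8.21 to 8.74% in each hCD2+ class, whereas the Rps27l share spreads from 3.597 to 34.3% over classes.

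In T cell-like cells Rps27l was at 61.1 (lowest), 202 (median) and 294 CPM (highest of 11 mice) in hCD2+ and at 49.8, 84.4 and 139 CPM in hCD2- (12 mice). The hCD2+ mice were spread over a wide range that overlapped with hCD2-, and the log2 fold change was 1.18 ± 0.218 (SE; edgeR adjusted p = 1.65e-04; higher in 9 of 11 mice). The summed T cell markers were at 3956 to 8418 CPM in hCD2+ and 6050 to 8365 CPM in hCD2-, with 5 of 12 lower, and their part was not tested. Cluster 9 made up 22.6% of the T cell-like cells in hCD2+ and 9.42% in hCD2-. Pooled over cells, Rps27l was at 321 CPM in cluster 9 of hCD2+ and 209 CPM in that of hCD2-, at 92.6 and 53.5 CPM in cluster 20, and at 52.0 and 51.1 CPM in cluster 21. Over mice, cluster 20 had 114 CPM ± 59.3 (n = 4) in hCD2+ against 51.2 ± 17.8 (n = 12), a log2 ratio of means of 1.16 with overlapping ranges. Without cluster 9 the mean was 65.1 CPM ± 19.9 (n = 10) against 50.9 ± 6.52 (n = 12).

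T cell-like cells also had more Rps2 (4384 CPM ± 746, n = 11, against 3069 ± 256, n = 12; log2 0.51 ± 0.0786 SE, edgeR adjusted p = 2.37e-05) and Rpsa (4337 ± 408 against 3504 ± 217; log2 0.30 ± 0.0524, edgeR adjusted p = 8.5e-05) in hCD2+. Within cluster 21, Rps2 was at 3211 CPM ± 295 (n = 9) against 3006 ± 219 (n = 12), and Rpsa at 3866 ± 193 against 3676 ± 211. Within cluster 20, Rps2 was at 3310 CPM ± 621 (n = 4) against 2400 ± 217 (n = 12; log2 of the ratio of means 0.46), and Rpsa at 3352 ± 289 against 2889 ± 277 (0.21), with overlapping ranges in both clusters. The number of members called higher in T cell-like cells depended on the filter and the depth. It was 32 as fitted, 10 with no filter on low counts and 10 with cells thinned to 5000 UMIs, whereas 10 to 12 were lower in each. Of 77 mitochondrial ribosomal protein genes tested, 55 were higher and 0 lower in hCD2+ T cell-like cells (median log2 0.47, against -0.03 for all genes), with Mrpl18 at 1.16 (edgeR adjusted p = 1.3e-05), while ribosome biogenesis genes were higher for 2 and lower for 8 of 36, where 22.1% and 18.2% of all genes were called.

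Comparisons between classes of the same library leave the library difference aside. T cell-like cells had more of nearly all members than NK or ILC1-like cells (hCD2-). 75 members were higher and 2 lower (26.3% and 25.8% of all genes, 52.1% in either direction), with a median log2 fold change of 0.34 for members and 0.02 for all genes. Rpl12, of the stalk base of the large subunit, was at 2275, 2423 and 2802 CPM (lowest, median and highest of 12 mice) in T cell-like cells against 1366, 1524 and 1599 CPM. The ranges did not touch, and the log2 fold change of 0.72 ± 0.0408 (SE; edgeR adjusted p = 1.47e-15) was the highest of the members. Rpl5, which with Rpl11 can bind and block Mdm2, had 0.59. The 2 exceptions were Rps27l (-0.34, edgeR adjusted p = 0.0434) and Rpl10 (-0.26, edgeR adjusted p = 2.73e-05), a protein that joins the large subunit late in its maturation. Of 36 ribosome biogenesis genes 21 were higher and 2 lower, with Wdr12 at 1.09 and Bysl at -0.63, and of 15 elongation and other terminal oligopyrimidine genes 7 were higher and 0 lower, with Tpt1 at 0.48.

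cDC1-like cells had more of the members than cDC2-like cells (hCD2-), with 74 higher and 0 lower (29.2% and 28.5% of all genes, 57.7% in either direction; median log2 0.30 for members and 0.01 for all genes). At an edgeR fit with library sizes alone 1 was lower, and DESeq2 also called 1 lower. Rps27l was at 158, 223 and 265 CPM (11 mice) against 92.6, 124 and 153 CPM (12 mice), the highest member at log2 0.88 ± 0.0789 (SE; edgeR adjusted p = 1.91e-10). Rpl36al followed at 0.78 and Rpl14 at 0.63. Rps27 itself did not pass the test, with a log2 fold change of -0.0037 (edgeR adjusted p = 0.962). Of 36 ribosome biogenesis genes 25 were higher and 0 lower, led by the rRNA methyltransferase Fbl (0.90), of 78 mitochondrial ribosomal protein genes 53 were higher and 3 lower, with Mrpl42 at 1.27 and Mrpl33 at -0.39, and of 15 elongation and terminal oligopyrimidine genes 14 were higher, led by Eef1b2 (1.17).

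CCR7 migratory DC-like cells had less of the members than cDC2-like cells (hCD2-), with 7 higher and 59 lower (37.1% and 41.6% of all genes, 78.7% in either direction; median log2 -0.22 for members and -0.05 for all genes). With library sizes alone, which moved the median of all genes to -0.44, the counts were 1 and 79 and the median of members was -0.61. Rpl4, a core protein of the large subunit, was at 311, 353 and 391 CPM against 837, 890 and 916 CPM (12 mice each). This wide gap gave the lowest log2 fold change, -0.94 ± 0.0427 (SE; edgeR adjusted p = 4.73e-18). Rps27l went the other way, at 200, 256 and 283 CPM against 92.6, 124 and 153 CPM (log2 1.43 ± 0.0690 SE, edgeR adjusted p = 2.21e-17). Rpsa (0.32) and Rps27 (0.22) were called higher after TMM normalization, but with library sizes alone their values were -0.07 and -0.17.

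Ribosome biogenesis differed far more than the members in that comparison. Of 35 genes tested 1 was higher and 34 lower, with a median log2 fold change of -1.84. Nop58, a core protein of the particles that guide rRNA methylation, was at -2.83 (edgeR adjusted p = 1.5e-18) and Fbl at -1.86, and the exception was Sbds (1.57), which acts in the last steps of large subunit maturation. Of 78 mitochondrial ribosomal protein genes 8 were higher and 55 lower. Over all genes, 37.1% were called higher and 41.6% lower in that comparison. The Myc network, whose Myc protein drives ribosome production, split both ways, with 4 of 10 higher and 5 lower. Mycl was at -3.39 and the Myc antagonist Mxd1 at 3.01. Of 10 p53 targets 6 were higher and 2 lower, with Mdm2 at 1.08, Cdkn1a at 2.63 and Trp53 itself at -1.22.

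Against Prdm16 or Aire DC-like cells of the hCD2+ library, CCR7 migratory DC-like cells had 15 members higher and 40 lower (35.4% and 38.6% of all genes, 74.1% in either direction; median log2 -0.09 for members and -0.03 for all genes), and 5 higher and 70 lower with library sizes alone. Rpsa stood out, at 1558, 1868 and 2266 CPM against 1104, 1190 and 1295 CPM, with no overlap (log2 0.88 ± 0.0551 SE, edgeR adjusted p = 1.59e-14). Rps27l was again the highest, at 250, 311 and 389 CPM against 117, 127 and 157 CPM (log2 1.52), and Rplp1 came after Rpsa at 0.46. The lowest were Rpl31 (-0.59) and Rpl3 (-0.53), of the core of the peptidyl transferase region. Of 34 ribosome biogenesis genes 1 was higher and 32 lower (median -1.10), with Nop16 at -2.72 and Sbds at 1.18. Cluster 12, 29.8% of these CCR7 migratory DC-like cells, had 4 raised Prdm16 or Aire DC markers, and its part was not tested.

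ILC3 or LTi-like and Prdm16 or Aire DC-like cells, whose total shares lay close together, differed in single members. Calls in either direction were about as frequent among the members as over all genes. In hCD2+, 12 were higher and 57 lower in ILC3 or LTi-like cells (42.1% and 40% of all genes, 82% in either direction; median log2 -0.17 for members and 0.03 for all genes). The direction of the whole set depended on the scaling, since library sizes alone gave 34 higher and 30 lower with a median of 0.01 (0.21 for all genes). Rps19, mutated in some patients with Diamond-Blackfan anaemia, was at 914, 949 and 1052 CPM in ILC3 or LTi-like cells against 1608, 1815 and 1947 CPM in Prdm16 or Aire DC-like cells. The ranges were well apart (log2 -1.08 ± 0.0316 SE, edgeR adjusted p = 3.52e-23).

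The stalk proteins went in opposite directions in that comparison. Rplp0 was at 1060, 1099 and 1162 CPM against 1413, 1560 and 1670 CPM (log2 -0.68 ± 0.0297 SE), and Rplp1 at 2033, 2159 and 2250 CPM against 1350, 1454 and 1584 CPM (log2 0.38 ± 0.0319 SE), both with no overlap between the classes (edgeR adjusted p = 8.86e-19 and 6.75e-12). Rpl10 was higher as well (0.37), and Rps27l (-0.97), Rpl7a (-0.70) and Rpl31 (-0.68) were lower. Rpsa, called lower at -0.07, was at 0.01 with no filter, 0.07 in thinned cells and 0.11 with library sizes alone. Of 78 mitochondrial ribosomal protein genes 7 were higher and 51 lower (Mrps16 -2.18, Mrps5 0.55), and of 36 ribosome biogenesis genes 19 were higher and 9 lower (Ubtf 0.73, Nop16 -2.10).

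**Figure D5:**
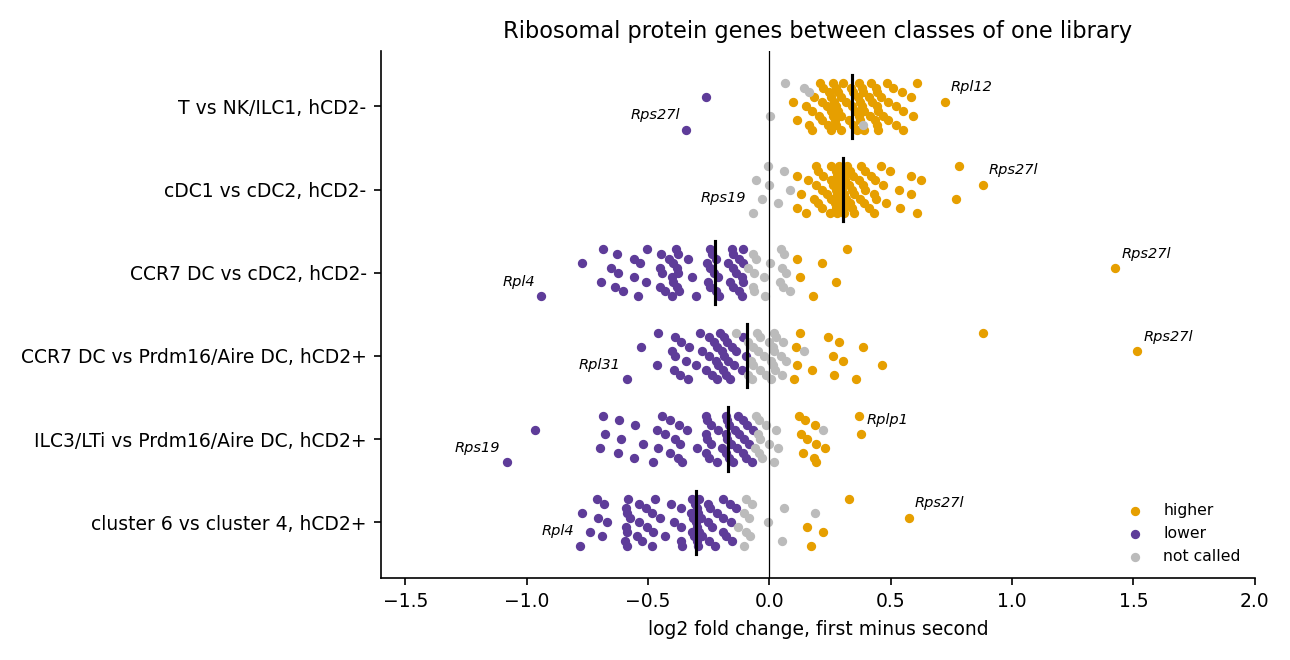
Log2 fold change of the 82 tested members (points; x axis, first class minus second) in 6 comparisons within one library (y axis), coloured by the edgeR call, with a line at the median and the extreme members named. The medians are 0.34, 0.30, -0.22, -0.09, -0.17 and -0.30 from top to bottom, and Rps27l is an extreme in 5 of the 6.

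Inside the Prdm16 or Aire DC-like class, cluster 6 had less of the members than cluster 4, in a comparison added after the clusters were seen. The 10 tested CCR7 migratory DC markers were all higher in cluster 6, and their part was not tested. 5 members were higher and 65 lower (33.4% and 34.6% of all genes, 67.9% in either direction; median log2 -0.30 for members and -0.03 for all genes). Rpl4 was at 229, 288 and 368 CPM in cluster 6 against 559, 603 and 641 CPM in cluster 4 (log2 -0.78 ± 0.0668 SE, edgeR adjusted p = 1.09e-11), with no overlap. Rpl36al (-0.74) and Rpl5 (-0.71) were close to it. Rps27l was higher, at 111, 156 and 186 CPM against 99.6, 119 and 155 CPM (log2 0.57 ± 0.0743 SE, edgeR adjusted p = 5.9e-08), and so was Rplp2 (0.33). Beside them, 20 of 31 ribosome biogenesis genes were lower and 3 higher (Polr1a -3.17, Pes1 0.71), and 6 of 8 p53 targets were higher and 1 lower (Cdkn1a 2.17, Trp53 -0.46). In the Myc network 4 of 9 were higher and 1 lower, with a median log2 of -0.03 against -0.03 for all genes, and the Myc antagonist Mxd1 was at 2.62. With library sizes alone, which moved the median of all genes to -0.26, 1 member was higher and 76 were lower.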

How the data were processed

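RNA and hashtag libraries of the hCD2+ and hCD2- fractions were analysed. The authors deposited UMI counts per gene and droplet and per hashtag, made with Cell Ranger 8.0.1 on mm10 per the submitters' processing notes; other settings are not given in the sources used here. The deposited hashtag assignments come with a probability as a fraction, per the file headers. Kept were cells assigned to 1 hashtag, with 500 genes or more and no more than 10% of UMIs mitochondrial; this dropped doublets of different mice, and no other doublet caller was run. The fractions are 1 library each, and p-values measure the spread between mice. Cells were clustered with scanpy 1.11.5 (2000 variable genes without members, 30 components, resolution 1) and named by marker lists where at least 3 markers were raised. Shares were compared over mice (at least 20 cells each) with two-sided permutation tests (100000 permutations, exact for under 10 mice), and counts summed per mouse (at least 10 cells each) with edgeR 4.0.16 in R 4.3.3 (TMM, filterByExpr) and, as an alternative, DESeq2 1.42.0. Coding lengths are from GENCODE vM21. Depth was 5914558 to 17966298 UMIs per mouse and library. On counts simulated for the comparison of CCR7 migratory DC-like with cDC2-like cells (9355 genes), edgeR called 94 of 100 genes changed by a log2 of 1 and 67 of 99 changed by 0.5. A hashtag of the same number was taken as the same mouse in both libraries. Same-mouse deviations had a median correlation of 0.11 to 0.16 in the 3 classes compared, and the lowest was -0.214, in T cell-like cells. The same hashtag was the best match for 10 of 12 pairs in ILC3 or LTi-like, 8 of 12 in CCR7 migratory DC-like and 4 of 11 in T cell-like cells. Per comparison, the 4 called members with the largest change in each direction (mean log2 CPM of at least 4), the paralogs, the stalk proteins, Rpsa, Rps4x and Rpl10 could be named, and of each gene list the smallest adjusted p and any against it. Members and lists were chosen with earlier results of these data known.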

Additional observations from a re-analysis of the deposited data

Results flagged for a closer look

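In 56 tests, each on the share or 1 member in a class of 4 to 10 mice, 8 found 1 mouse far from the rest. Chance gives about 1 in 20 for independent tests, but these reuse the same mice and are not independent. In hCD2- ILC3 or LTi-like cells (6 mice) 1 mouse had a member share of 7.68% (others 8.57 to 9.06%) and 1 had Rplp0 at 828.7 CPM (others 1023 to 1124 CPM). In hCD2- cDC1-like cells (6 mice) Rpl7l1 was at 80.5 CPM in 1 mouse (others 101 to 108 CPM). In hCD2+ T cell-like cells (9 mice) 1 mouse had Rpl36a at 1130 CPM (others 921 to 1026 CPM) and 1 had Rps4x at 3018 CPM (others 2660 to 2790 CPM). In hCD2+ cDC2-like cells (5 mice) single mice had Rpsa at 2470 CPM (others 2121 to 2216 CPM), Rps4x at 1668 CPM (others 1881 to 1965 CPM) and Rpl7l1 at 147 CPM (others 68.1 to 78.6 CPM).

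The difference between hCD2+ and hCD2- itself differed between classes for some members, by the interaction term of an edgeR fit over 4 arms, Benjamini-Hochberg adjusted over all genes, in a test added after the data were seen. Between T cell-like and CCR7 migratory DC-like cells it differed for 17 members of 82, a smaller part than the 26.2% of all genes. All of the 17 were more positive in T cell-like cells, among them Rps27l (by log2 0.90), Rpsa (0.43) and Rpl36a (0.31). Between T cell-like and ILC3 or LTi-like cells it differed for 10 members of 82, also a smaller part than the 19.3% of all genes. Of these, 5 went in each direction, among them Rps27l (1.06), Rpsa (0.26) and Rps27 (-0.29). Between CCR7 migratory DC-like and ILC3 or LTi-like cells it differed for 36 members of 82 (12.1% of all genes), all more negative in CCR7 migratory DC-like cells, among them Rpl36a (-0.33), Rps27 (-0.25) and Rpl10 (-0.20). The directions over all genes were not counted for these terms.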

How the results depend on the processing

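Alternatives for the class shares kept direction and call in 283 cases, those for shares between libraries in 57, and those for counts of called members in 59. The exceptions follow, as hCD2+ minus hCD2- in percentage points where shares are compared, and the cause was not tested. With per-cell shares the difference was -0.445 in CCR7 migratory DC-like, -0.247 in T cell-like and 0.0109 in cDC2-like cells, and ILC3 or LTi-like minus Prdm16 or Aire DC-like cells gave 0.882. After removal of an assumed 10% of free RNA, which raises the difference by construction, it was -0.0876 in CCR7 migratory DC-like, 0.737 in ILC3 or LTi-like and 0.0751 in cDC2-like cells. With at least 10 cells per mouse it was -0.844 in cDC2-like cells, and cDC1-like minus NK or ILC1-like cells gave -0.105. Leaving out 1 mouse at a time gave -0.667 to -0.268 in cDC2-like cells. Added after the data were seen, members of at least 400 coding bases gave -0.140 in CCR7 migratory DC-like, 0.446 in ILC3 or LTi-like and 0.911 in T cell-like cells, and 1 mix of clusters gave 0.0828 over all cells. The mean per-cell small to large subunit ratio was 0.816 over all hCD2+ cells, 0.805 and 0.824 in hCD2- and hCD2+ cDC2-like and 0.760 in Prdm16 or Aire DC-like cells.

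With the mouse as a replicate block, the pairing left too few mice for a call in the hCD2+ cDC2-like class against T cell-like (T cell-like higher by 6.56), ILC3 or LTi-like (2.44), Prdm16 or Aire DC-like (2.45) and CCR7 migratory DC-like cells (4.14), and in hCD2- cDC1-like against ILC3 or LTi-like cells (5.58). The pairing also left too few mice for a call between T cell-like clusters 20 and 21 in hCD2+ (difference -3.36) and CCR7 migratory DC-like clusters 10 and 11 in hCD2- (-2.60), and clusters 9 and 21 of hCD2+ T cell-like cells (-1.09). The replicate block moved no count of called members by over 1.5 times.

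Members called between the libraries numbered 35 in ILC3 or LTi-like cells with DESeq2 (20 with edgeR), 21 in CCR7 migratory DC-like cells thinned to 5000 UMIs (33 unthinned), and in T cell-like cells 22 with no filter and 20 thinned (44 as fitted). Signs turned for members near 0. Against Prdm16 or Aire DC-like cells, Rpsa in ILC3 or LTi-like cells became 0.0143 (no filter), 0.0740 (thinned) and 0.111 (library sizes alone) and Rplp2 0.0344 (library sizes alone), and in CCR7 migratory DC-like cells Rps27 became -0.0478 (thinned) and -0.146, Rpl10 -0.240, Rplp0 -0.0712 and Rplp2 -0.193 (library sizes alone). Against cDC2-like cells, Rplp2 in CCR7 migratory DC-like cells became -0.170 (thinned) and -0.383, Rps27 -0.169, Rps27rt -0.111 and Rpsa -0.0674 (library sizes alone). Between clusters 6 and 4, Rps19 became -0.0052 and Rps27 -0.0542 (library sizes alone). The comparison of Prdm16 or Aire DC-like cells between the libraries was not run, because no hCD2- mouse held 10 of the 15 cells. Members at low counts, such as Rps19bp1 and Rps27rt, are the least precise.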
